A study of Mus musculus with 12 samples.

Results

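The genes Gabrg1, Gabra2, Gabra4 and Gabrb1 are neighbours in one GABA-A receptor subunit cluster on mouse chromosome 5, and their RNA was followed across 12 retinas of the oxygen-induced retinopathy model. They were taken by symbol from a table of 36131 genes (ENSMUSG00000001260, ENSMUSG00000000560, ENSMUSG00000029211 and ENSMUSG00000029212, respectively), and all 4 had counts high enough to be tested. The set was chosen by measured values, the RNA levels of O2-PBS against RA-PBS retinas, in which Gabra4 and Gabrb1 were among the few genes called lower. The values of that comparison are therefore described for these 4 genes and not tested. Retinas were taken at P18 from wildtype C57BL/6J mice, 1 animal per library and 4 per group. RA-PBS mice (animals 1 to 4) were kept in room air and given PBS as placebo. O2-PBS mice (animals 5 to 8) spent P7 to P12 in 75% oxygen, returned to room air and received PBS. O2-IC100 mice (animals 9 to 12) had the same oxygen exposure and received intraperitoneal IC100, a humanized monoclonal antibody against the inflammasome adaptor ASC, at 10 µg/g body weight on P12, P14 and P16. The whole retina was sequenced, so fewer cells of a type and less RNA per cell cannot be told apart. The labels do not say which animals were littermates.

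GABA-A receptors are ligand-gated chloride channels built from 5 subunits around a central pore. A typical receptor holds alpha, beta and gamma or delta subunits, and the subunit types set where the receptor sits and how it responds to GABA and to drugs. Gabra2 encodes an alpha subunit found at many synapses, Gabra4 encodes an alpha subunit that often joins the delta subunit in extrasynaptic receptors, and Gabrb1 and Gabrg1 encode a beta and a gamma subunit. In the retina GABA is released mainly by amacrine and horizontal cells and shapes the output of bipolar and ganglion cells, where receptors of the rho subunits (Gabrr1, Gabrr2, Gabrr3) act beside those of the alpha and beta subunits.

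In the RefSeq annotation the 4 genes lie in the order Gabrg1, Gabra2, Gabra4, Gabrb1 over 1398.5 kb, and the only other protein-coding gene between them is Cox7b2, a testis-type cytochrome oxidase subunit gene. Gabrg1, Gabra2 and Gabra4 are on the minus strand and Gabrb1 is on the plus strand. Gabra4 and Gabrb1 stand head to head and their gene bodies overlap by 388 bases. Their annotated exons share 46 bases on opposite strands, which is 0.756% of the exon bases of Gabra4 and 0.332% of those of Gabrb1, and reads from these bases cannot be told apart without strand. The bases just upstream of a start of each gene (RefSeq, GRCm38.p6, 5′ to 3′ on the gene's own strand) are printed to describe these neighbours. The Gabra4 sequence (chr5:71658364-71658558, minus strand) was ended at base 195 of 250, where an annotated untranslated region begins. Those of Gabrg1 (chr5:70842618-70842867, minus strand), Gabra2 (chr5:71095850-71096099, minus strand) and the second of the 2 annotated starts of Gabrb1 (chr5:71699682-71699931, plus strand) hold 250 bases. Capitals mark a match to the motif of nuclear respiratory factor 1 (NRF-1), 10 letters that read the same on both strands.
Gabrg1: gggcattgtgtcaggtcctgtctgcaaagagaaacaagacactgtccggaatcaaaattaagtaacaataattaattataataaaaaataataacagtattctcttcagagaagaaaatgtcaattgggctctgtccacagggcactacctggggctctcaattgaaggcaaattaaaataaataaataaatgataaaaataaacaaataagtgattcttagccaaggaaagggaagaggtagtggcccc
Gabra2: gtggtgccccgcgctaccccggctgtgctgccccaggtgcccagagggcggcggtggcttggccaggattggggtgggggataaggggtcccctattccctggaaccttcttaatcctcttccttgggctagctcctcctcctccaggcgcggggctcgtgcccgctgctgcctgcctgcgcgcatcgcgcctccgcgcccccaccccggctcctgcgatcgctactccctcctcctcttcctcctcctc
Gabra4: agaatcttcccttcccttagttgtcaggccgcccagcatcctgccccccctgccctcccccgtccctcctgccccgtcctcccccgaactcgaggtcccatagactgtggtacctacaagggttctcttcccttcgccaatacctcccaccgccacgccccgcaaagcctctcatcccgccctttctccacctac
Gabrb1: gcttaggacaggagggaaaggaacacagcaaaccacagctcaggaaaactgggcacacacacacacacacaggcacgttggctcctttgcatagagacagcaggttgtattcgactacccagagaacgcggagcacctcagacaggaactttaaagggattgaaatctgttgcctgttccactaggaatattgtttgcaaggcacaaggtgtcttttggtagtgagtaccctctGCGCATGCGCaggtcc

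G and C made up 35.6% of the 250 bases before the Gabrg1 start, and 5.8% of all 32851 promoters in the annotation were at or below that share. They made up 70.0% before the Gabra2 start, where 91.2% of promoters were at or below, 61.2% before the Gabra4 start (75.7%) and 50.8% before the second Gabrb1 start (45.5%). Before the first Gabrb1 start, which is not printed and overlaps Gabra4, they made up 64.4% (82.3%). Of those 250 bases 111 lie in annotated untranslated regions. The set therefore held one AT-rich start and one start among the most GC-rich of all. The motifs of NRF-1, of EGR factors (GCGTGGGCG), of cyclic AMP response elements (TGACGTCA) and a TATA box (TATAAA) were searched on both strands in the 250 bases before each of the 5 annotated starts. The one match was the NRF-1 motif beginning 16 bases before the second Gabrb1 start, and 0.782% of all promoters held that motif. EGR, cyclic AMP element and TATA motifs were present in 0.536%, 1.55% and 12.4% of promoters. A match or its absence in these windows is a description of the letters only.

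One library stood apart before any comparison. Total counts ranged from 14907143 to 24438082 per animal, and 16 lens crystallin genes took 59.0% of all counts in O2-IC100 animal 10. They took 1.25%, 4.50% and 1.44% in RA-PBS animals 2, 3 and 4 and between 0.00303% and 0.0158% in the other 8 animals. The library of animal 10 therefore held mainly lens RNA. The fit of all 12 animals is the main one by design, but the comparisons that hold O2-IC100 are given first without animal 10. The values for all 12 animals stand beside them. In CPM (counts scaled to a common library total), animal 10 had 31.6% of the median Gabra4 level of animals 9, 11 and 12 and 25.2% of the median Gabrb1 level, but 2.51% for Gabra2 and 3.55% for Gabrg1. Summed rod markers stood at 7.60% there, amacrine markers at 19.9% and Muller glia markers at 53.5%, so retinal genes were not reduced in one proportion in this library. Its TMM scaling factor was 0.324, against 1.07 to 1.15 in the other 11 libraries, so its normalized CPM is higher than its plain CPM. The summed CPM of 4 Y-linked genes was 239 to 372 in animals 1, 2, 3, 8, 9, 11 and 12 and 1.31 to 11.0 in the other 5. Outside animal 10, 3 of 3 O2-IC100, 1 of 4 O2-PBS and 3 of 4 RA-PBS animals were thus of the high kind.

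The subunit genes of the cluster were present at low to moderate levels in room air. In TMM-normalized CPM per kb of exon, the scale on which genes can be compared with each other, Gabra2 stood at 6.14 ± 0.788 (SD, n = 4) in RA-PBS retinas, Gabra4 at 1.93 ± 0.478, Gabrb1 at 1.34 ± 0.130 and Gabrg1 at 1.03 ± 0.217. The lowest room-air value of Gabra2 (5.09) was above the highest value of the other 3 genes. The ranges of Gabra4 (1.59 to 2.64) and Gabrb1 (1.204 to 1.504) did not overlap, but those of Gabrb1 and Gabrg1 (0.870 to 1.345) did. Per kb of the longest transcript Gabrg1 (1.69 ± 0.358) was above Gabrb1 (1.35 ± 0.131), so the order of these 2 genes depends on the transcript taken. More abundant subunit genes lay elsewhere in the genome. The rho subunit genes Gabrr1 and Gabrr2 stood at 41.3 ± 7.81 and 29.1 ± 2.97 per kb of exon, Gabrr3 at 9.25 ± 2.40 and Gabra3 at 8.81 ± 1.91.

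Gabra4 showed the widest separation of the 4 genes between O2-PBS and RA-PBS retinas. Its normalized CPM was 16.04, 10.9, 10.3 and 9.69 in RA-PBS animals 1 to 4 and 3.50, 4.80, 4.52 and 5.82 in O2-PBS animals 5 to 8. In O2-IC100 animals 9 to 12 it was 9.95, 11.0, 9.12 and 10.7, where 11.0 is animal 10. On this scale the O2-PBS animals lay below every animal of the other groups, and the O2-IC100 animals lay within the range of room air or just under it. The place of animal 10 rests on its scaling factor. Its plain Gabra4 CPM was 3.56, below the 3.89 to 6.56 of the O2-PBS animals. The means were 11.7 ± 2.91 in RA-PBS (n = 4), 4.66 ± 0.955 in O2-PBS (n = 4) and 9.92 ± 0.784 in O2-IC100 without animal 10 (n = 3). The fitted O2-PBS level was 2.52-fold below room air (log2 fold change −1.33, SE 0.19). The counts behind these levels were modest, with 58 to 105 reads per O2-PBS animal and 184 to 286 per RA-PBS animal.

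Gabrb1, the head-to-head neighbour of Gabra4, was also lower in every O2-PBS animal. Its normalized CPM was 16.7, 20.8, 19.1 and 17.7 in RA-PBS animals 1 to 4 and 10.7, 9.02, 7.86 and 11.5 in O2-PBS animals 5 to 8. The O2-IC100 values were 15.3, 12.9, 12.9 and 14.4 in animals 9 to 12, with animal 10 at 12.9. The 3 groups did not overlap on this scale, and the O2-IC100 animals lay between the other 2 groups. For animal 10 this again rests on its scaling factor, since its plain CPM was 4.17 against 8.88 to 12.9 in O2-PBS animals. The group means were 18.6 ± 1.80, 9.76 ± 1.63 and, without animal 10, 14.2 ± 1.22, and O2-PBS stood 1.90-fold below RA-PBS (log2 fold change −0.93, SE 0.13).

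Gabra2 was lower in every O2-PBS than in every RA-PBS animal, and its O2-IC100 animals were split. The RA-PBS values were 53.3, 48.4, 38.9 and 47.1 and the O2-PBS values were 20.4, 22.4, 30.2 and 23.5, with no overlap. In O2-IC100 retinas animals 9 and 12 stood at 21.7 and 22.7, animal 11 at 44.3 and animal 10 at 2.02. Animals 9 and 12 were thus at the O2-PBS level and animal 11 at the room-air level. The group means were 46.9 ± 6.02, 24.1 ± 4.24 and, without animal 10, 29.6 ± 12.7. The fitted O2-PBS level was 1.95-fold below RA-PBS (log2 fold change −0.96, SE 0.21).

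Gabrg1 was the gene of the set with overlapping groups throughout. It stood at 6.84, 7.20, 7.66 and 10.6 in RA-PBS, at 6.09, 6.36, 5.65 and 7.59 in O2-PBS and at 9.16, 7.15 and 9.71 in O2-IC100 animals 9, 11 and 12, with animal 10 at 1.14 from 9 reads. The means were 8.07 ± 1.71, 6.42 ± 0.832 and 8.67 ± 1.34, and the log2 fold change of O2-PBS against RA-PBS was −0.33 (SE 0.17). All of these standard errors are from the fit without animal 10.

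**Figure D1:**
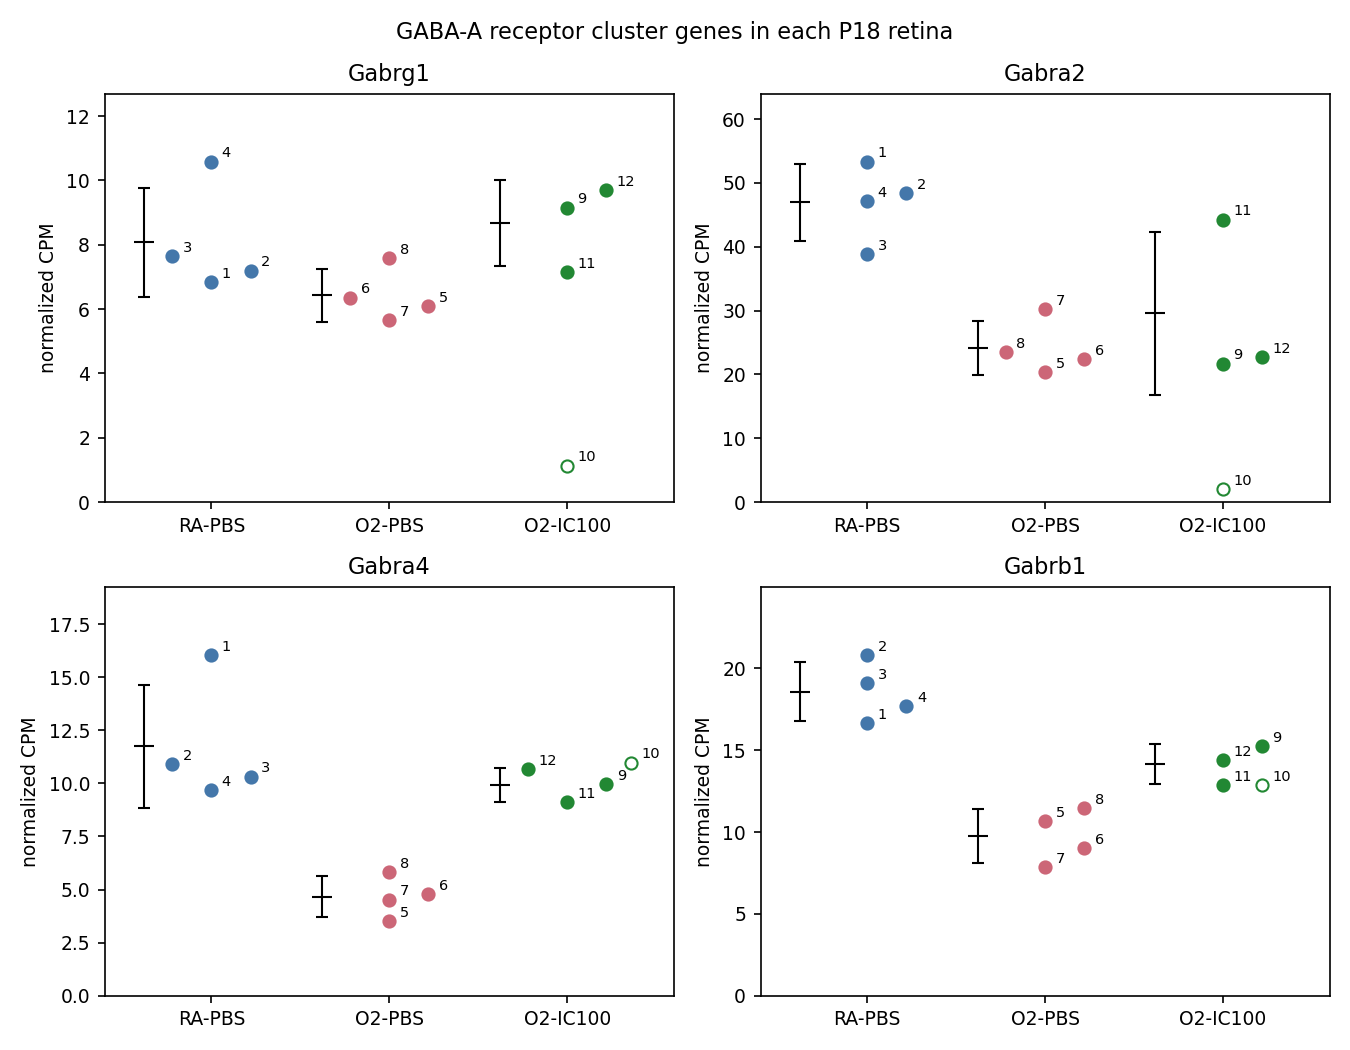
Normalized CPM (vertical axes, starting at 0) of Gabrg1, Gabra2, Gabra4 and Gabrb1 in each of the 12 retinas by group. Points carry animal numbers, the open point is lens-rich animal 10, and the black bar left of each group is the mean ± SD without it. O2-PBS animals lie below all others for Gabra4 (3.50 to 5.82), and the groups separate for Gabrb1, while animal 11 (44.3) stands above animals 9 and 12 for Gabra2. For Gabra4 and Gabrb1 the place of animal 10 rests on its scaling factor.

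As description of the values that chose the set, 3 of the 4 genes had every O2-PBS animal below every RA-PBS animal, against 6.63% of all tested genes with all 12 animals and 6.48% without animal 10. In the fit of all 12 animals, 133 of 16489 genes (0.807%) passed a fold change of 1.5, p below 0.05 and an adjusted p below 0.1 in this comparison, and 4 of them (0.0243%) were lower. Without animal 10 it was 1046 of 16688 (6.27%), with 364 lower (2.18%). The log2 fold changes of the 4 genes ran from −1.33 to −0.33 with a median of −0.95, beside a median of −0.01 over all tested genes. The estimates were the same with and without animal 10, while the SE of Gabra2 was 0.56 with it and 0.21 without it.

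The comparison of O2-IC100 with O2-PBS asked whether the antibody changed these levels after hyperoxia. It shares the O2-PBS animals with the comparison that chose the genes, so its p-values for these genes are not independent of that choice. O2-PBS values that were low by chance would also raise the estimates here. Gabra4 was 2.15-fold higher in O2-IC100 than in O2-PBS retinas without animal 10 (log2 fold change 1.10, SE 0.20, 95% interval 0.67 to 1.54) and passed the test (edgeR quasi-likelihood test with Benjamini-Hochberg adjustment, adjusted p = 0.0381). The level was higher in 3 of 3 O2-IC100 animals than in all 4 O2-PBS animals. Of all 16688 genes tested, 0.947% passed in this comparison and 0.216% were higher. With all 12 animals, the main fit, the estimate was nearly unchanged (1.13, SE 0.21), but Gabra4 was not called (edgeR adjusted p = 0.287). In that fit 0 genes passed in this comparison (0%), and 2784 had an unadjusted p below 0.05. DESeq2 called 125 genes with all 12 animals and 383 without animal 10, Gabra4 among them in both fits (adjusted p = 0.000647 and 0.000237). The call was not made when the summed level of Y-linked genes entered the fit as a covariate without animal 10 (log2 fold change 0.80, adjusted p = 0.128). O2-PBS animal 8, the one with high Y-linked RNA, had a Gabra4 level of 5.82, below the 9.12 to 10.7 of the 3 O2-IC100 animals with the same kind of Y-linked RNA but above the other 3 O2-PBS animals. With 3 of 3 O2-IC100 animals of the high kind against 1 of 4 O2-PBS animals, the part of Y-linked RNA in this difference cannot be told apart from that of the group.

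Gabrb1 was 1.47-fold higher in O2-IC100 than in O2-PBS without animal 10 and did not pass either the fold or the adjusted p (log2 fold change 0.55, SE 0.14, interval 0.26 to 0.85, adjusted p = 0.102). With all 12 animals it was 0.51 (SE 0.15, adjusted p = 0.287). In normalized CPM both Gabra4 and Gabrb1 had every O2-IC100 animal above every O2-PBS animal, which 10.1% of genes did with all 12 animals and 19.4% without animal 10.

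For Gabrg1 the log2 fold change between O2-IC100 and O2-PBS was 0.45 without animal 10 (SE 0.18, adjusted p = 0.227) and 0.10 with it (SE 0.45, adjusted p = 0.919). For Gabra2 it was 0.31 without animal 10 (SE 0.22, interval −0.17 to 0.79, adjusted p = 0.442) and −0.08 with it (adjusted p = 0.949). Without animal 11 but with animal 10 the Gabra2 estimate was −0.62, so its sign rested on which of these 2 libraries was kept. Neither gene passed the adjusted p. Without animal 10 the Gabrg1 interval (0.05 to 0.84) lay wholly on the positive side (edgeR unadjusted p = 0.0292), while that of Gabra2 did not. The intervals of both genes do not exclude a change of the size seen for Gabrb1.

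Against room air no gene of the cluster passed in O2-IC100 retinas, where 1.56% of all genes did without animal 10 (0.617% lower) and 0% with it. Gabra4 stood at a log2 fold change of −0.23 (SE 0.20, interval −0.65 to 0.20, adjusted p = 0.615), Gabrb1 at −0.37 (SE 0.14, interval −0.67 to −0.08, adjusted p = 0.208), Gabra2 at −0.65 (SE 0.22, interval −1.14 to −0.17, adjusted p = 0.182) and Gabrg1 at 0.12 (SE 0.18, interval −0.27 to 0.51, adjusted p = 0.800), all without animal 10. With all 12 animals the estimates were −0.21 for Gabra4, −0.42 for Gabrb1, −1.04 (SE 0.56) for Gabra2 and −0.23 for Gabrg1, so the value of Gabrg1 changed sign. Every O2-IC100 animal was below every RA-PBS animal for Gabrb1, which held for 4.92% of all genes without animal 10 and 3.27% with it. For Gabra4 the groups overlapped. This comparison shares the RA-PBS animals with the one that chose the genes.

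**Figure D2:**
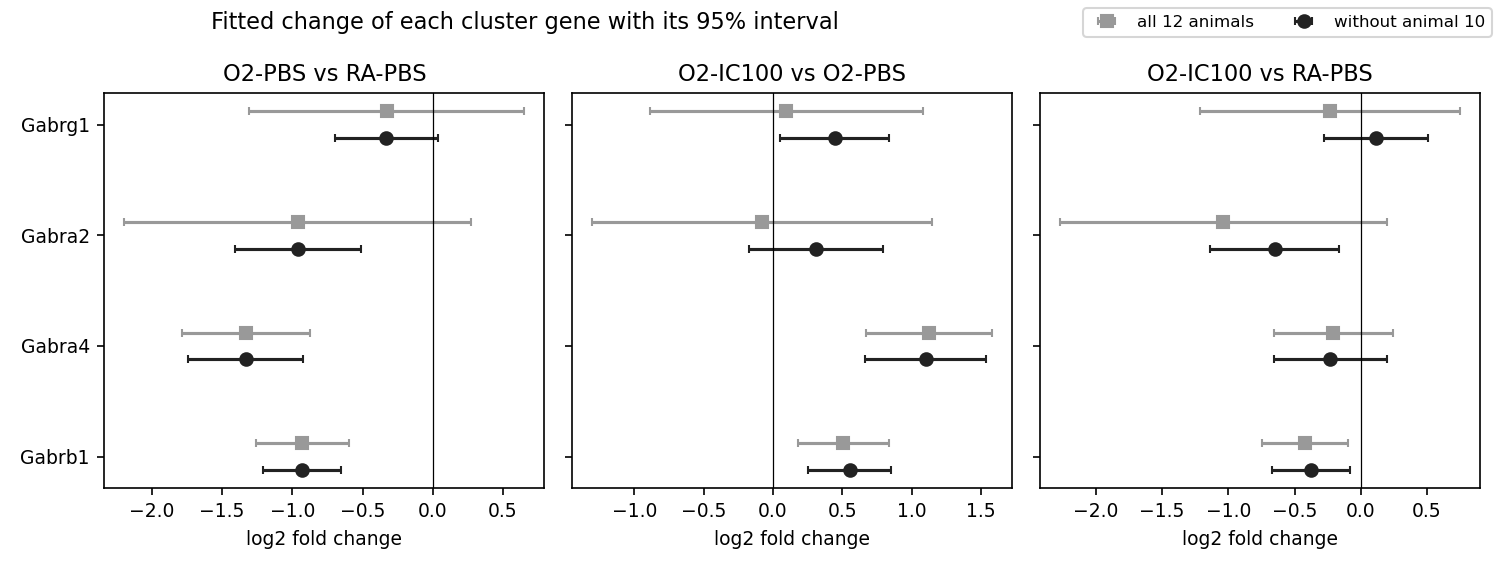
Log2 fold change (horizontal axes) of each cluster gene in the 3 comparisons, with bars for 95% intervals. Grey squares are the fit of all 12 animals and black circles the fit without animal 10. Gabra4 is the gene with an O2-IC100 against O2-PBS estimate above 1 (1.13 and 1.10), and the intervals of Gabra2 and Gabrg1 narrow when animal 10 is left out.

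Markers of other retinal cells moved beside these genes. Summed over 8 ganglion cell markers, the level was 975.6 to 1448 CPM in RA-PBS, 822 to 911 in O2-PBS and 1016 to 1085 in O2-IC100 animals 9, 11 and 12, so that the O2-PBS animals were lowest here too. Of these 8 markers 7 were lower in O2-PBS than in RA-PBS (median log2 fold change −0.37, 1 passed) and 8 were higher in O2-IC100 than in O2-PBS (median 0.26, 0 passed), without animal 10. The 8 amacrine markers summed to 1057 to 1480 CPM in RA-PBS, 983 to 1084 in O2-PBS and 1060 to 1119 in O2-IC100, with medians of −0.32 and 0.03 in the same comparisons. The 8 bipolar markers had medians of −0.30 and 0.11, the 5 horizontal cell markers −0.40 and −0.14, and the 7 Muller glia markers −0.49 and 0.20. The 8 rod markers had medians of 0.01 and 0.05. With all 12 animals the medians for O2-IC100 against O2-PBS were −0.004 for ganglion, −0.22 for amacrine, −0.21 for bipolar, −0.24 for horizontal, 0.31 for Muller glia and −0.24 for rod markers, so those of ganglion, amacrine, bipolar and rod markers changed sign.

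Markers of pigment epithelium, vessels, microglia and astrocytes moved as well. The pigment epithelium list holds Rlbp1, which is also in the Muller glia list. The 5 pigment epithelium markers summed to 553 to 655 CPM in RA-PBS, 336 to 457 in O2-PBS and 511 to 536 in O2-IC100 animals 9, 11 and 12, against 1613 in animal 10. Their medians without animal 10 were −1.08 in O2-PBS against RA-PBS (3 of 5 passed as lower) and 0.52 in O2-IC100 against O2-PBS (0 passed), so this list had the same order of groups as Gabra4. The 5 endothelial markers went the other way, with 158 to 249.7 CPM in RA-PBS, 357 to 404 in O2-PBS and 275 to 308 in O2-IC100 (medians 0.80 with 4 passing as higher, and −0.43 with 1 passing as lower). The 4 pericyte markers had medians of 0.93 (3 higher) and −0.46 (1 lower), the 6 microglia markers 0.58 (2 higher) and 0.38 (0 passed), and the 3 astrocyte markers 0.47 (0 passed) and −0.70 (1 lower). None of the markers of these lists was at 0 in any library, and the part of cell composition in the differences of the cluster genes was not tested.

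Lens RNA also moved with the groups, since 3 of 4 RA-PBS libraries held over 1% crystallin counts and no O2-PBS library held more than 0.0158%. RA-PBS animal 1, which had 0.00315% crystallin counts, gave the highest Gabra4 (16.04) and Gabra2 (53.3) of its group and the lowest Gabrb1 (16.7). Without animal 3, which had the most crystallin RNA in room air, and without animal 10, Gabra4 was called in O2-IC100 against O2-PBS at a log2 fold change of 1.09 (edgeR adjusted p = 0.0293). Fits with the crystallin level as a covariate are given in the last section. In them, estimates of Gabrg1, Gabra2 and Gabra4 for O2-PBS against RA-PBS moved further down. Lens RNA went with the groups, so its part in the differences from room air cannot be told apart from that of the group.

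Ratios of neighbouring genes within a library remove the library's scaling. They do not depend on lens RNA only as long as lens holds neither gene, which was not tested and matters most for animal 10. The log2 ratio of Gabra4 to Gabrb1 was −0.05, −0.93, −0.89 and −0.87 in RA-PBS animals 1 to 4, −1.60, −0.91, −0.79 and −0.98 in O2-PBS animals 5 to 8, and −0.62, −0.23, −0.50 and −0.43 in O2-IC100 animals 9 to 12. All O2-IC100 animals were above all O2-PBS animals, so Gabra4 was higher relative to Gabrb1 under IC100 than under placebo in these libraries. The difference of means was 0.63 (exact permutation test, two-sided, p = 0.0286, the smallest that 4 against 4 allows, adjusted p = 0.171 over 6 comparisons of ratios). Without animal 10 it was 0.56 (exact permutation p = 0.0571, adjusted p = 0.286), so the difference did not reach an adjusted p of 0.1 either way. Against RA-PBS the difference was 0.24 (exact permutation p = 0.343) with all animals. The comparisons of ratios with O2-PBS and with RA-PBS share those animals with the comparison that chose the genes.

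The log2 ratio of Gabra2 to Gabra4 was 1.73 to 2.28 in RA-PBS and 2.01 to 2.73 in O2-PBS, and 1.12, 2.28 and 1.09 in O2-IC100 animals 9, 11 and 12, with −2.39 in animal 10. Animal 11 lay within the ranges of both RA-PBS and O2-PBS, and animals 9 and 12 lay below both. The difference between O2-IC100 and O2-PBS was −0.88 without animal 10 (exact permutation p = 0.114) and −1.85 with it (p = 0.0857 by the same permutation test). The log2 ratio of Gabrg1 to Gabra2 was −2.96 to −2.15 in RA-PBS and −2.41 to −1.63 in O2-PBS, and −1.24, −2.62 and −1.23 in animals 9, 11 and 12. The O2-IC100 mean was 0.85 above RA-PBS without animal 10 (exact permutation p = 0.143). With 3 against 4 animals the smallest p of this test is 0.0286. As a description, O2-PBS stood 0.65 above RA-PBS for Gabrg1 to Gabra2, 0.36 above for Gabra2 to Gabra4 and 0.39 log2 units apart for Gabra4 to Gabrb1, where O2-PBS was the lower group.

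**Figure D3:**
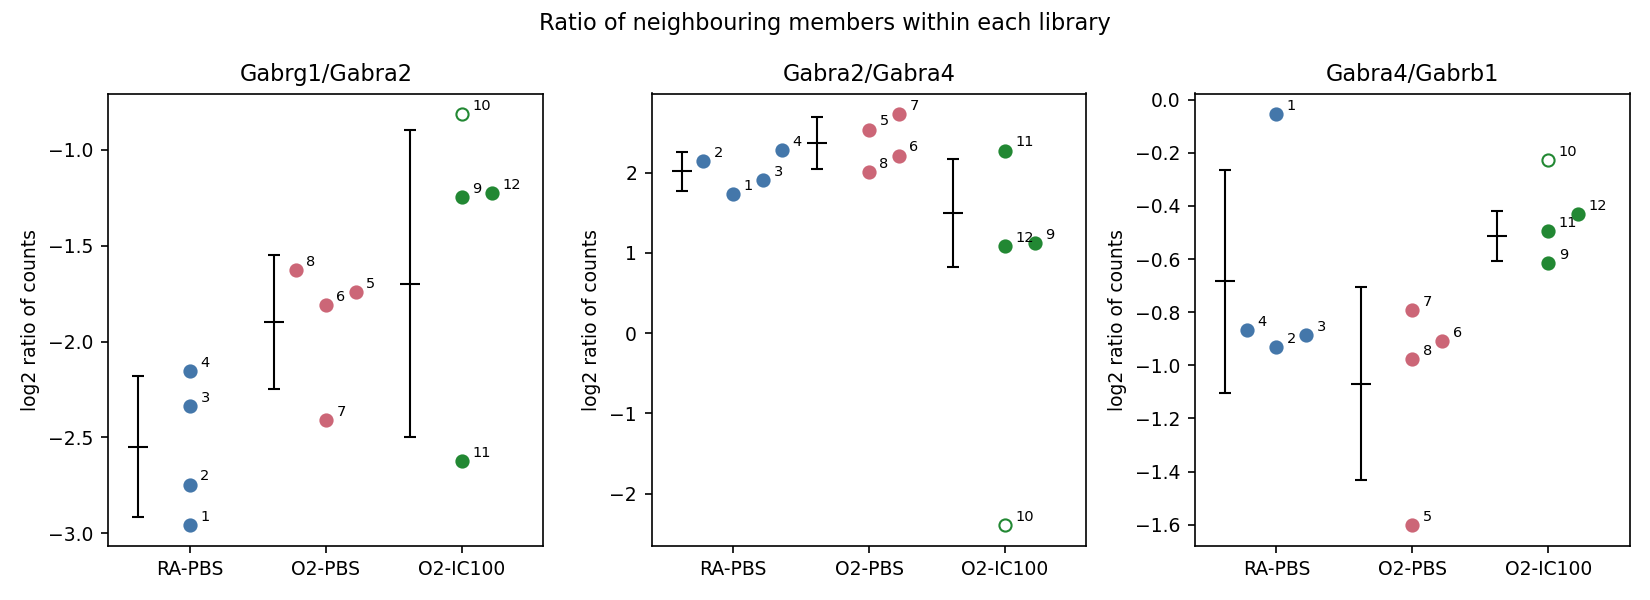
Log2 ratio of counts of neighbouring cluster genes (vertical axes) in each retina by group, with animal numbers, animal 10 as an open point and the black bar giving mean ± SD without it. The Gabra4 to Gabrb1 ratio of the O2-IC100 animals (−0.62 to −0.23) lies above that of the O2-PBS animals (−1.60 to −0.79), and animal 11 stands apart from animals 9 and 12 in both ratios that hold Gabra2.

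A list of 12 other GABA-A receptor subunit genes lies outside this cluster, and 10 of them were tested. Gabra6, best known from cerebellar granule cells, had 0 counts in all 12 libraries, which allows a share of up to 1.23e-05% to 2.01e-05% of a library's counts (3 counts, counting error only), and Gabrp had 1 count in 1 animal. Of the 10 tested, 9 had a lower estimate in O2-PBS than in RA-PBS. The median of the 10 log2 fold changes was −0.61 without animal 10, beside −0.01 for all genes. Without animal 10, 5 of the 10 fell, where 2.18% of all genes did. With all 12 animals 0 of 10 passed in edgeR, where 2 had an unadjusted p below 0.05, and 0 passed in DESeq2.

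The 5 that fell were alpha, beta, gamma and rho subunits. Gabrb2, a beta subunit common in synaptic receptors of the brain, had 40.0, 32.7, 26.4 and 32.6 CPM in RA-PBS and 20.9, 19.1, 20.9 and 22.1 in O2-PBS, with no overlap (log2 fold change −0.67, SE 0.12, adjusted p = 0.0044). Gabrg3 changed by −0.69, Gabra3 by −0.62, Gabrr1 by −0.60 and Gabrr3 by −0.79 on the log2 scale. Gabrr2 (−0.45) passed the adjusted p but not the fold of 1.5. Gabre had the one estimate above 0 (0.48, adjusted p = 0.340). The Gabra4 estimate of −1.33 was below all 10, while those of Gabrb1 and Gabra2 (−0.93 and −0.96) were also below all 10 and that of Gabrg1 (−0.33) was within their range. The cluster genes were chosen by their values in this comparison, so their place among the 10 is a description only.

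Between O2-IC100 and O2-PBS all 10 had an estimate above 0 without animal 10, with a median log2 fold change of 0.23 beside 0.00 for all genes. Gabrr3 alone of the 10 rose by the test (0.73, SE 0.16, adjusted p = 0.0772), where 0.216% of all genes did. The Gabra4 estimate of 1.10 was above all 10. With all 12 animals 7 of 10 estimates were above 0 and 0 passed in edgeR, with 0 at an unadjusted p below 0.05 and 0 passing in DESeq2. Between O2-IC100 and RA-PBS 0 of 10 passed without animal 10 in edgeR, where 2 had an unadjusted p below 0.05, and 0 passed in DESeq2. Gabrg3 came nearest (−0.53, adjusted p = 0.0810, under the fold).

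**Figure D4:**
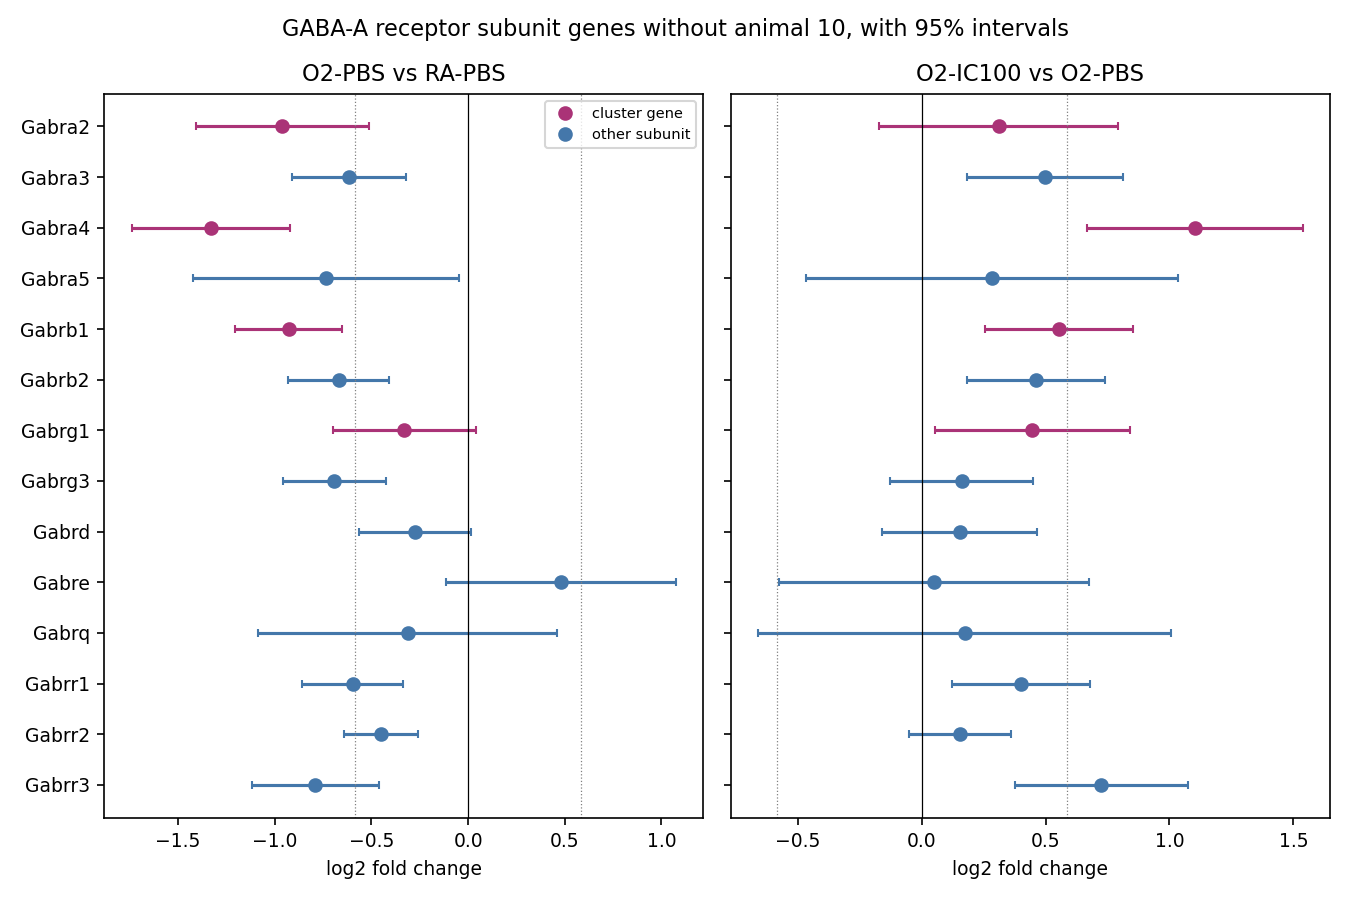
Log2 fold change (horizontal axes) with 95% intervals of the 4 cluster genes and 10 other GABA-A subunit genes, fitted without animal 10. Dotted lines mark a fold change of 1.5 either way. In O2-PBS against RA-PBS, whose values chose the cluster genes, 13 of the 14 estimates lie below 0 and Gabra4 (−1.33) is lowest. In O2-IC100 against O2-PBS Gabra4 (1.10) is highest.

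Genes flanking the cluster gave a view of the same stretch of chromosome. Of 10 neighbouring genes 7 were tested, and 0 of 7 passed in any of the 3 comparisons with or without animal 10. Cox7b2, which lies between Gabra2 and Gabra4, had 0 or 1 counts per library. Without animal 10 the estimates for O2-PBS against RA-PBS were −0.29 for Kctd8, a potassium channel tetramerization domain gene that binds GABA-B receptors, 0.00 for Guf1 and −0.13 for Gnpda2 on the Gabrg1 side. On the Gabrb1 side they were −0.22 for Commd8, 0.10 for Atp10d, which the annotation lists as a transcribed pseudogene, −0.12 for Nfxl1 and 0.01 for Cnga1, which encodes the rod cyclic nucleotide-gated channel. The lowest of the 7 adjusted p-values was 0.288 (edgeR). Between O2-IC100 and O2-PBS these 7 ranged from −0.25 for Atp10d to 0.47 for Kctd8 without animal 10 and from −0.17 to 0.50 with it. The estimates of Gabra2, Gabra4 and Gabrb1 in O2-PBS against RA-PBS were outside the range of the 7 flanking genes, and that of Gabrg1 was just below it. The cluster genes were chosen by their values in this comparison, so their place beside the flanking genes is a description only.

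**Figure D5:**
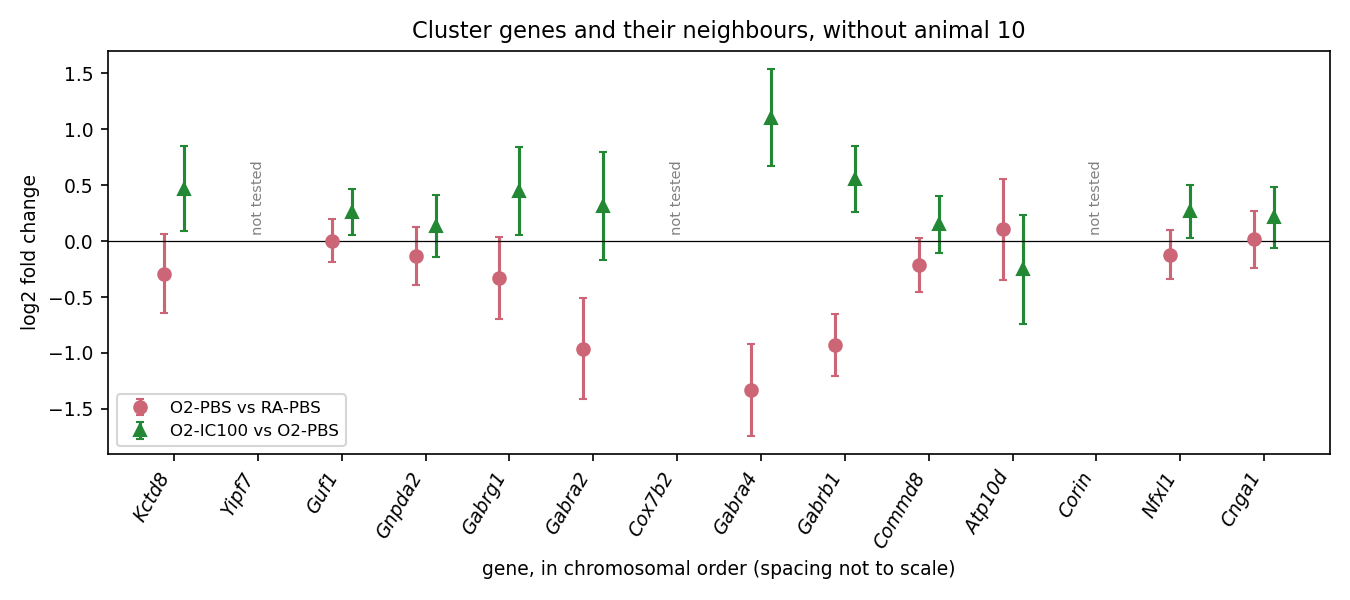
Log2 fold change (vertical axes) with 95% intervals of the cluster genes and the tested flanking genes in their order along chromosome 5, fitted without animal 10. Gabra2, Gabra4 and Gabrb1 lie between −1.33 and −0.93 in O2-PBS against RA-PBS, while the flanking genes lie between −0.29 and 0.10. The cluster genes were chosen by the values of that comparison.

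Other lists of GABA signaling genes held no called gene. Of 16 tested genes for clustering and trafficking of GABA-A receptors, 0 passed all thresholds in any comparison, with a median log2 fold change of −0.24 in O2-PBS against RA-PBS without animal 10. The 2 with the highest mean CPM over all 12 animals were Iqsec3, a partner of gephyrin at inhibitory synapses (−0.36, adjusted p = 0.164), and Gabarapl1, of the GABA-A receptor-associated protein family (−0.25, adjusted p = 0.203). Without animal 10, Nlgn2 and Trak2 had higher means than Gabarapl1, at 0.15 (adjusted p = 0.542) and 0.01 (adjusted p = 0.958). Of 9 genes for GABA synthesis, transport and chloride handling 0 passed (median −0.27). The most abundant were Slc12a5, the neuronal chloride extruder KCC2 (−0.05, adjusted p = 0.872), and the GABA-making enzyme gene Gad1, which passed the adjusted p and not the fold (−0.47, adjusted p = 0.0448). Of 4 GABA-B receptor genes 0 passed (median −0.21), with the receptor subunits Gabbr1 at −0.14 (adjusted p = 0.441) and Gabbr2 at −0.27 (adjusted p = 0.278). Named after its values were seen, Hap1, which takes part in the transport of GABA-A receptors, came close to the fold (−0.50, SE 0.08, adjusted p = 0.0023). In O2-IC100 against O2-PBS the medians of these 3 lists were −0.02, 0.05 and 0.00 without animal 10 and −0.06, −0.22 and −0.33 with it, and 0 genes passed in either fit.

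Genes known as regulators of GABA-A subunit promoters were read as a further list of 9. BDNF signaling through EGR3 is known to raise Gabra4 transcription in cultured neurons. Bdnf was 9.37, 7.87, 8.05 and 9.95 CPM in RA-PBS, 5.97, 5.89, 6.73 and 7.26 in O2-PBS and 13.2, 11.1 and 10.54 in O2-IC100 animals 9, 11 and 12, with animal 10 at 5.81. The O2-PBS animals lay below all others except animal 10. Bdnf rose in O2-IC100 against O2-PBS without animal 10 (log2 fold change 0.86, SE 0.15, adjusted p = 0.0327), and with all 12 animals it was 0.66 (adjusted p = 0.287). In O2-PBS against RA-PBS it was −0.45 (adjusted p = 0.0623) and did not reach the fold.

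Egr3 went the other way from Gabra4 under oxygen. It had 14 to 17 counts per RA-PBS animal, 41 to 77 per O2-PBS animal and 48, 6, 35 and 13 in O2-IC100 animals 9 to 12. It was higher in O2-PBS than in RA-PBS with all 12 animals (edgeR adjusted p = 0.0652) and without animal 10 (log2 fold change 2.03, SE 0.36, adjusted p = 0.0043), where 0.782% and 4.09% of all genes were higher. In O2-IC100 against O2-PBS Egr3 stood at −1.25 with all 12 animals (SE 0.40, edgeR adjusted p = 0.287). Egr2 was higher without animal 10 (3.63, SE 0.87, adjusted p = 0.0210) from 0 to 3 counts in RA-PBS and 9 to 57 in O2-PBS. Nrf1, which encodes NRF-1 and is named for the motif match, was at 0.16 (adjusted p = 0.247) and −0.02 (adjusted p = 0.893) in the oxygen and IC100 comparisons. Creb1 and Ntrk2, the most abundant of the list, were at 0.13 (adjusted p = 0.386) and −0.08 (adjusted p = 0.715) in O2-PBS against RA-PBS. Of the 9 genes, 2 passed in O2-PBS against RA-PBS and 1 in O2-IC100 against O2-PBS without animal 10. Whether any of these regulators acted on the cluster genes was not tested.

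The genes whose levels followed each subunit most closely were ranked by Pearson's r of log2 CPM over the 11 animals without animal 10, among 15148 genes with a mean of at least 1 CPM. All genes share these libraries and the group differences, so the ranks are a description. For Gabra4 they were Nova1, a splicing factor of inhibitory synapse transcripts (r = 0.972), the AMPA receptor subunit Gria3 (0.962), the synaptic adhesion gene Slitrk2 (0.956) and the protocadherin Pcdh11x (0.952). Gria3 was lower in O2-PBS than in RA-PBS by 0.58 and higher in O2-IC100 than in O2-PBS by 0.41 on the log2 scale, at adjusted p = 0.000295 and 0.0381, both under the fold of 1.5. Slitrk2 passed in O2-PBS against RA-PBS (−0.65, adjusted p = 0.000849).

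For Gabrb1 the closest were the fatty acid elongase gene Elovl6 (0.966), Hap1 (0.949), Mras, Rhobtb2 and Cpne7 (0.930), of which Cpne7 fell in O2-PBS (−0.96, adjusted p = 0.0031). For Gabra2 they were the sugar transporter Slc2a6 (0.957), Tunar (0.945), the rho subunit Gabrr2 (0.929), Gm5148 and the spermine oxidase gene Smox (0.913). For Gabrg1 they were Zfp644 (0.925), Cdkn2aip, the sterol synthesis gene Msmo1, Ano3 and Tgs1 (0.917). Within the cluster Gabra4 and Gabrb1 were the most alike pair (r = 0.834, rank 92 among the genes ranked for Gabrb1 and 240 for Gabra4). Gabra2 and Gabra4 had r = 0.655, and the adjacent Gabrg1 and Gabra2 had r = 0.083. Of the pairs that are not adjacent, Gabrg1 and Gabrb1 had r = 0.602, Gabra2 and Gabrb1 0.597 and Gabrg1 and Gabra4 0.569. Within the cluster, adjacent pairs thus had the higher r except for Gabrg1 and Gabra2. Some subunit genes outside the cluster were closer than the neighbours. Gabra4 had r = 0.917 with Gabrb2, and Gabrb1 had r = 0.874 with Gabrg3, so likeness was not particular to adjacent genes.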

How the data were processed

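Retinal RNA of 12 mice was sequenced by the authors with 150-base paired reads. Per the labels and the study's methods, reads were quantified with Kallisto on GRCm39 and summed per gene with tximport (versions, strand setting and quality filters are not given in the sources used here). The deposited table holds expected counts for 36131 Ensembl genes, 42.2% of them not whole, and 35374 IDs matched a symbol. Counts were rounded, filtered by filterByExpr and scaled by TMM in edgeR 4.0.16 (R 4.3.3). The 3 groups, taken from the labels, were compared with the quasi-likelihood F test and Benjamini-Hochberg adjustment over all tested genes. Genes were called at a fold of at least 1.5, p under 0.05 and adjusted p under 0.1, the study's thresholds. The fit of all 12 animals is the main one (16489 genes), given beside a fit without animal 10 (16688 genes), and values are from the latter unless stated. SE is the log2 fold change divided by the square root of F. Normalized CPM uses the TMM factors of all 12 animals. Alternatives used limma 3.58.1 (voom) and DESeq2 1.42.0, other scalings, filters and covariates, and left out animals.

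Ratios had 0.5 added to both counts and were tested by exact permutation over animals. Exon lengths per symbol came from GENCODE on GRCm38, promoters from RefSeq on GRCm38.p6, and only the sequences' own coordinates are given. Total counts of 14907143 to 24438082 and the small number of animals per group limit the precision. The highest total is that of lens-rich animal 10. The p-values set group differences against the spread between these animals. On simulated counts for O2-PBS against RA-PBS without animal 10 (16450 genes), 95.7% of 94 genes changed 2-fold and 99% of 99 changed 4-fold were recovered, with 6 false calls. The simulation gave every gene the same dispersion and held no lens-rich library, so this recovery does not carry over to the real fits. The cluster genes and all lists were chosen with earlier results of these data known, so lists are described by counts and medians and not tested. Named genes were the cluster genes, the other subunits, the flanking genes, called genes of the other lists or else the 2 most abundant by mean over all 12 animals, and the 5 genes most like each cluster gene. Hap1 as a list member and Nrf1 fall outside this rule. Some genes that these lists and this rule would hold are not reported here, and counts over the lists leave them out. Insyn2a had no row under that symbol. No columns of the table were left out.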

Additional observations from a re-analysis of the deposited data

Results flagged for a closer look

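Dixon's test over 51 groups of 4 animals marked 8 values in which 1 animal stood far from the other 3, where chance marks about 1 in 20 groups. In RA-PBS the log2 ratio of Gabra4 to Gabrb1 was −0.054 in animal 1, and the nearest of the other animals was at −0.87. In O2-PBS, animal 8 was high for Gabra3 (25.4 normalized CPM, nearest 21.9) and for Gabrr1 (67.8, nearest 61.1). Animal 8 was also the one O2-PBS animal with high Y-linked RNA.

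The other 5 were all O2-IC100 animal 10, the library with 59.0% crystallin counts. Its normalized CPM was 9.85 for Gabra3 (nearest 30.3), 0.884 for Gabrr1 (nearest 77.4), 2.78 for Gabrr2 (nearest 46.2) and 1.39 for Gabrr3 (nearest 34.2). Gabrg3 was high instead, at 30.4 against a nearest value of 12.8. Gabra4 at 11.0 and Gabrb1 at 12.9 were not marked in this animal.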

How the results depend on the processing

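No paired analysis was possible because animals are numbered 1 to 12 with no number shared between groups. Counts of called genes are given in the order O2-PBS against RA-PBS, O2-IC100 against O2-PBS and O2-IC100 against RA-PBS, where all 12 animals gave 133, 0 and 0. DESeq2 gave 412, 125 and 299, and Gabra4 in O2-IC100 against O2-PBS at 1.14 passed. limma voom gave 2 genes in each of the IC100 comparisons, upper quartile scaling 3 and no low count filter 2 in the last, an adjusted p below 0.05 gave 77 in the first, and fitting only the 2 groups compared gave 867 with 5 other subunits. Leaving out 1 animal gave 32 to 1046, 0 to 158 and 0 to 261 genes and 0 to 5, 0 to 1 and 0 other subunits, with the highest count in each case without animal 10. The log2 fold changes then ran for O2-PBS against RA-PBS from −0.42 to −0.17 (Gabrg1), −1.09 to −0.89 (Gabra2), −1.46 to −1.15 (Gabra4) and −1.02 to −0.84 (Gabrb1). For O2-IC100 against O2-PBS they ran from −0.12 to 0.45, −0.62 to 0.31, 1.01 to 1.25 (adjusted p 0.0381 to 0.545) and 0.42 to 0.60, and for O2-IC100 against RA-PBS from −0.44 to 0.12, −1.58 to −0.65, −0.29 to −0.02 and −0.47 to −0.36. Dropping RA-PBS animal 2 alone gave the 32 genes. The cause of these differences in counts was not tested.

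Without animals 1 and 10 the counts were 968, 282 and 315 with 2 and 1 other subunits called in the first and second comparison, and Gabra4 at 1.10 passed (adjusted p = 0.0175). This pair was planned as the libraries with the most crystallin RNA, but animals 3 and 10 held the most. Without animals 3 and 10, chosen after seeing the data, it was 1343, 274 and 299 with 5 and 1 subunits, and Gabra4 at 1.09 passed. DESeq2 without animal 10, also added later, gave 1167, 383 and 566 with 5 and 1 subunits, Gabra4 at 1.08 and Gabra2 in O2-IC100 against RA-PBS at −0.67 (adjusted p = 0.0615). The Y-linked covariate without animal 10 gave 880, 36 and 420 with 5 subunits in the first. A crystallin covariate over all 12 animals gave 2519 genes and 7 subunits in the first and 3658 and 8 in the third, with Gabrg1 at −1.08 and Gabra2 at −2.13 in the first and Gabra2 at −1.98 (adjusted p = 0.0215) in the third. The same covariate without animal 10, added later, gave 3257, 348 and 1768 with 6 and 1 subunits, Gabra4 at −1.69 and 1.11 (adjusted p = 0.0174), and Gabra2 at −0.84 (adjusted p = 0.0908) in the third. Signs of Gabra4 and Gabrb1 in all 3 comparisons held under each setting.

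Leaving out 1 animal, the ratio differences ran from 0.85 to 1.45 (Gabrg1 to Gabra2), −2.08 to −0.52 (Gabra2 to Gabra4) and 0.16 to 0.45 (Gabra4 to Gabrb1) against RA-PBS. Against O2-PBS they ran from 0.20 to 0.80, −2.43 to −0.88 and 0.45 to 0.72. Without animal 11, with animal 10 kept, the ratios of Gabrg1 to Gabra2 and of Gabra2 to Gabra4 passed an adjusted p of 0.1 in both comparisons (exact permutation, adjusted p = 0.0429), as did Gabra4 to Gabrb1 against O2-PBS (adjusted p = 0.0686). Without animal 1 Gabra4 to Gabrb1 passed against RA-PBS (0.45, adjusted p = 0.0857). Depth limits the low genes most, since Gabra4 had 58 to 105 reads in O2-PBS animals.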
